A study of Mus musculus with 19 samples.

Results

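The Toll-like receptor and inflammasome genes followed here are Tlr2, Tlr4, Tlr7, Tlr8, Tlr9, Tlr13, Nlrp3, Casp1, Casp4 and Gsdmd. They were chosen by name, with earlier results of these data known, and make up 10 of the 18521 genes in the count matrix. Shares over all genes are therefore set beside their counts as a description and not as a test. All 10 passed the filter on low counts, which kept 15760 genes. RNA was measured in whole skin of female mice. Their strain, Ptch1+/- K14-CreER2 p53fl/fl, carries 1 functional copy of Ptch1, the receptor that restrains Hedgehog signalling, and a floxed Trp53 gene that tamoxifen-activated Cre removes in cells using the keratin 14 promoter. In 11 of the 16 mice, 3 injections of 300 µg tamoxifen and an x-ray dose of 4 Gy had induced early basal cell carcinoma (BCC). Of these, 3 mice (4 libraries) had then received ablative fractional laser (AFL), which drills a grid of microscopic channels into the skin, in 1 treatment at 5% density and 40 mJ per microbeam. Another 4 mice (5 libraries) had received 8 applications of vismodegib, an inhibitor of the Hedgehog transducer Smoothened, and 4 mice (4 libraries) had no treatment of their tumours. Healthy skin came from 5 mice of the same strain (6 libraries) in which nothing had been induced. The label of every group reads day 4, and mice given a vehicle or a sham procedure were not analysed here.

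Toll-like receptors are membrane proteins of macrophages, dendritic cells, neutrophils and, for some members, keratinocytes. Those at the cell surface bind lipids and proteins of microbes, those in endosomes bind nucleic acids, and most of them signal through the adaptor MyD88 to NF-kB and interferon regulatory factors. Inflammasomes are cytosolic complexes in which a sensor such as Nlrp3 activates caspase 1, which processes interleukin precursors and cuts gasdermin D, the protein that forms pores in the cell membrane. In skin, this machinery takes part in the response to wounding and to microbes.

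Library totals lay between 27185921 and 33556611 expected counts, and the counts of a mouse with a pair of libraries were summed, so n is always a number of mice. Values are in CPM, expected counts relative to the total of the mouse's libraries after TMM scaling, and averages are mean ± SD over mice. "Rose" and "fell" are used of genes with an adjusted p under 0.05 in edgeR's quasi-likelihood test over all genes. Trp53 averaged 38.9 ± 6.84 CPM after laser (n = 3), 40.1 ± 16.3 after vismodegib (n = 4), 29.8 ± 5.40 in untreated BCC skin (n = 4) and 119 ± 17.8 in healthy skin (n = 5). It was lower in all 3 induced groups (log2 fold changes against healthy skin -1.62, -1.57 and -2.01, adjusted p = 0.00126, 0.00112 and 0.000423). The labels give ages of 228 to 326 days for mice with induced tumours and 128 to 137 days for healthy ones, so age and induction cannot be told apart. Days since induction were 80 to 126 in laser-treated, 109 to 137 in vismodegib-treated and 130 to 144 in untreated mice, which separates the laser-treated from the untreated mice in time as well. Vismodegib mouse 9 stood apart, with a TMM factor of 0.591 against 0.906 to 1.18 in the other mice. The labels do not name batches, and the spread between these mice is the error behind every p-value.

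Of the 10 genes, 7 had a promoter in the RefSeq table for GRCm38.p6, namely Tlr2, Tlr8, Tlr9, Tlr13, Nlrp3, Casp1 and Casp4. Tlr4, Tlr7 and Gsdmd are named only. The 250 bases before the start are shown for Tlr2 and Tlr13, which rose after both treatments, for Nlrp3, which had the largest fitted change after laser, and for Casp1 and Casp4, which did not pass the test after either. Capitals mark matches, on either strand, to GAGGAA (the core of PU.1, a factor of macrophages and neutrophils), GGG and TTCC with any 3 bases between (NF-kB), TGANTCA (AP-1), TTCNNNGAA (STAT) and GAAA and GAAA with any 2 bases between (the interferon-stimulated response element), where N is any base.
Tlr2 (chr3:83841609-83841858, - strand): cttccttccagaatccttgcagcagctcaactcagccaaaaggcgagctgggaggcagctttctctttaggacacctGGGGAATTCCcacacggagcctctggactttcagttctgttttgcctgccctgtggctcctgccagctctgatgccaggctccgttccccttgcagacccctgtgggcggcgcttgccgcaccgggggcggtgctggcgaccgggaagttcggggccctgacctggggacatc
Tlr13 (chrX:106143025-106143274, + strand): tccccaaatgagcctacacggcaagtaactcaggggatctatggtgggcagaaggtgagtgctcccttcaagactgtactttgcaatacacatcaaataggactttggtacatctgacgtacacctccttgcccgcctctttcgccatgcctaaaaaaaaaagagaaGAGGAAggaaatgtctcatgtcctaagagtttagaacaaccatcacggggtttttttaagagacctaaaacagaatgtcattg
Nlrp3 (chr11:59542436-59542685, + strand): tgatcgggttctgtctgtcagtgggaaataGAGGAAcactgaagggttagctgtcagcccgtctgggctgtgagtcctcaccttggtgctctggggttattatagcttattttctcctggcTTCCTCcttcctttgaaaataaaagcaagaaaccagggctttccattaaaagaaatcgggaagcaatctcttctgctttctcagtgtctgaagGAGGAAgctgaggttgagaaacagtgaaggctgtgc
Casp1 (chr9:5298267-5298516, + strand): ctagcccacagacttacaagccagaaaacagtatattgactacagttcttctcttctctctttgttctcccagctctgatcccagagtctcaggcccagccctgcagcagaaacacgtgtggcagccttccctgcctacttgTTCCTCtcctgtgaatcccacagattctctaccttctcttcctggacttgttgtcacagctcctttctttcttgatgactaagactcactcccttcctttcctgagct
Casp4 (chr9:5308599-5308848, + strand): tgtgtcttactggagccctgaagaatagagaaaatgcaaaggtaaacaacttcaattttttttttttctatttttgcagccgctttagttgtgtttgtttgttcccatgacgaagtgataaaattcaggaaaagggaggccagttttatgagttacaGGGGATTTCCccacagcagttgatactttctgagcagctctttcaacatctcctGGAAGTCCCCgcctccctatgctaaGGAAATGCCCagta
GAGGAA was present in 5 of the 7 windows, against 23.1% of 27025 promoters of the same length. Nlrp3 held it 3 times, the last match lying 36 to 31 bases before the start, and Tlr13, Casp1, Tlr8 and Tlr9 held it once each. The NF-kB motif was present in 2 of the 7, against 4.6% of all promoters, with 1 match in Tlr2 and 3 in Casp4. Tlr9 held 1 match to TGANTCA (6.87% of all promoters) and Tlr8 held 1 to TTCNNNGAA (7.18%). None of the 7 held the interferon-stimulated response element, which 3.04% of all promoters have. Matches of different motifs overlapped in 0 places. A match is a stretch of letters and not evidence of binding, and the windows of Nlrp3 and Casp4 are those of the first of a pair of starts in the table. The window of the other Nlrp3 start held 0 matches and that of the other Casp4 start, which overlaps the first, held 3.

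The first comparison asks how laser treatment changed these genes in tumour-bearing skin. After laser, 7 of the 10 genes rose against untreated BCC skin and 0 fell. Across all genes tested, 6.10% rose and 1.65% fell. The genes that rose were the endosomal receptors Tlr7, Tlr8, Tlr9 and Tlr13, the surface receptor Tlr2, the sensor Nlrp3 and the pore former Gsdmd. The median log2 fold change was 2.73 over the 10 genes and -0.04 over all genes tested. In 8 of the 10, the laser-treated mice were all above the untreated mice, against 11.5% of all genes, and in 0 all were below, against 7.34%. The protease genes Casp1 and Casp4 overlapped between the groups. In bulk skin, more cells of a type and more RNA per cell cannot be told apart.

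**Figure D1:**
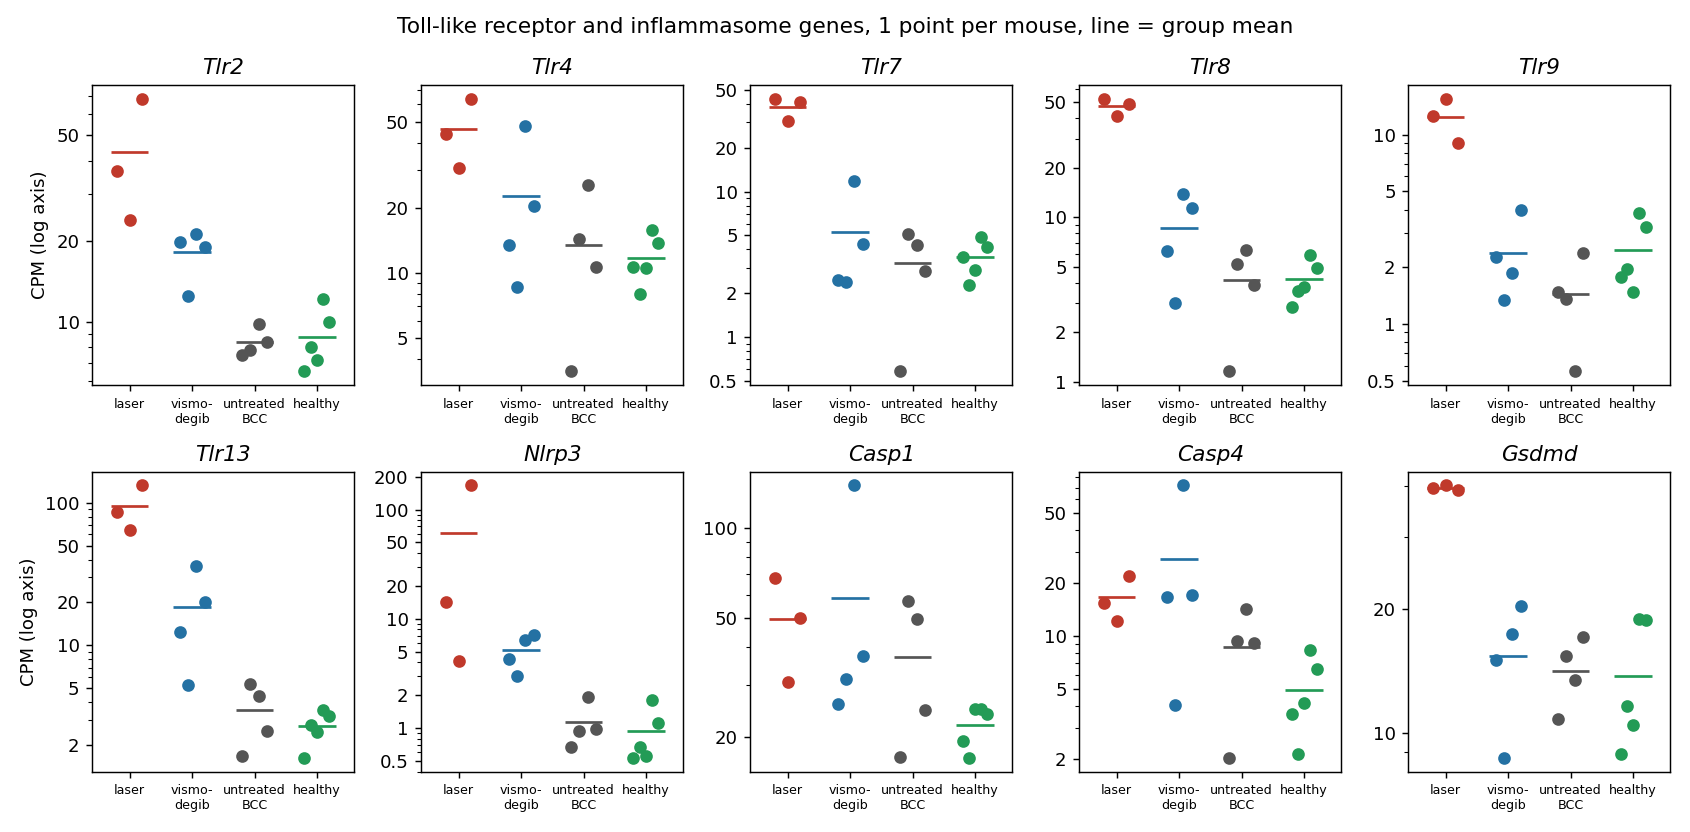
CPM on a log axis for each of the 10 genes, with 1 point per mouse and a line at the group mean, for laser-treated (3 mice), vismodegib-treated (4), untreated BCC (4) and healthy skin (5). Tlr7, Tlr8, Tlr9, Tlr13 and Gsdmd in laser-treated mice lie above every other mouse, while Casp1 and Casp4 overlap between the groups with induced tumours.

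Among the surface receptors, Tlr2, which pairs with Tlr1 or Tlr6 to bind bacterial lipopeptides, had 36.7, 24.1 and 68.7 CPM in laser-treated mice. It had 19.8, 12.5, 21.2 and 19.1 CPM in vismodegib-treated mice, 7.50, 7.85, 9.76 and 8.42 CPM in untreated BCC mice and 6.50, 8.02, 7.15, 12.2 and 9.93 CPM in healthy mice. All laser-treated mice were above all vismodegib-treated mice, and these above all mice without treatment. The log2 fold change of Tlr2 after laser was 2.36 (SE 0.32, adjusted p = 0.000241), or 5.15-fold, and 1.82 without laser mouse 11, the highest of the group.

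Tlr4, the receptor of bacterial lipopolysaccharide, had 43.7, 30.5 and 63.9 CPM in laser-treated mice. It had 13.5, 8.58, 48.0 and 20.4 CPM after vismodegib, 3.50, 14.3, 25.5 and 10.6 CPM in untreated BCC mice and 10.6, 8.02, 10.5, 15.7 and 13.8 CPM in healthy mice. The laser-treated mice were all above the untreated ones, whose highest value was 7.28 times the lowest, and the difference missed the threshold. Its log2 fold change after laser was 1.77 (SE 0.57, adjusted p = 0.0719), with a 95% interval of 0.57 to 2.98. Tlr4 passed in DESeq2 (adjusted p = 0.0254), in limma's voom fit (adjusted p = 0.0189) and without untreated mouse 5 (log2 fold change 2.25, adjusted p = 0.0324). It stayed uncalled in 8 of 12 alternative fits and in 6 of 7 fits that left out 1 mouse. Without laser mouse 11 its log2 fold change was 1.42 (adjusted p = 0.316).

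The endosomal receptors separated the laser-treated mice from all others. Tlr7, which binds single-stranded RNA, had 43.7, 30.4 and 41.2 CPM after laser. Its values were 2.46, 2.40, 11.8 and 4.39 CPM after vismodegib, 0.579, 5.08, 4.32 and 2.86 CPM in untreated BCC mice and 3.55, 2.27, 2.87, 4.89 and 4.13 CPM in healthy mice. The lowest laser-treated mouse was above vismodegib mouse 9, the highest of the remaining mice. Tlr7 rose by a log2 fold change of 3.58 (SE 0.62, adjusted p = 0.00174), or 11.9-fold.

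Tlr8, a receptor of single-stranded RNA in humans, lies next to Tlr7 on the X chromosome. It had 52.6, 41.4 and 49.0 CPM after laser, 6.22, 3.01, 13.8 and 11.4 CPM after vismodegib, 1.16, 5.23, 6.31 and 3.90 CPM in untreated BCC mice and 2.87, 3.56, 3.75, 5.90 and 4.93 CPM in healthy mice. Its rise after laser, a log2 fold change of 3.52 (SE 0.52, adjusted p = 0.000466), was as large as that of its neighbour. Tlr7 and Tlr8 followed each other most closely of all pairs among the 10 genes, with a mean absolute difference of 0.31 in centred log2 CPM over the 16 mice. The ratio of their CPM, Tlr8 over Tlr7, stayed between 0.808 and 2.61 in every mouse.

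Tlr9, which binds unmethylated CpG DNA, was the least abundant of the 6 receptors after laser. It had 12.6, 15.5 and 8.98 CPM in laser-treated mice, 2.25, 1.34, 1.86 and 3.99 CPM after vismodegib, 1.48, 1.35, 0.560 and 2.37 CPM in untreated BCC mice and 1.77, 1.95, 1.46, 3.85 and 3.25 CPM in healthy mice. Mouse 7 was the highest laser-treated mouse for Tlr9 and the lowest for Tlr2, Tlr4, Tlr7, Tlr8 and Tlr13. Tlr9 rose by a log2 fold change of 3.10 (SE 0.49, adjusted p = 0.000769). With days since induction in the fit its value was 2.42 and the adjusted p 0.0514.

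Tlr13, which binds a bacterial ribosomal RNA sequence in mice, changed most among the receptors. It had 86.5, 64.9 and 132 CPM after laser, 12.5, 5.30, 36.3 and 20.3 CPM after vismodegib, 1.68, 5.41, 4.45 and 2.53 CPM in untreated BCC mice and 1.63, 2.77, 2.48, 3.56 and 3.21 CPM in healthy mice. The laser-treated mice were above all others, and of the vismodegib-treated mice mouse 6 alone fell within the range of untreated BCC mice. The log2 fold change after laser was 4.75 (SE 0.56, adjusted p = 8.27e-05), or 26.9-fold. Tlr13 was 1.98 to 3.21 times Tlr7 in laser-treated mice and 2.20 to 5.08 times after vismodegib, against 0.886 to 2.90 times in untreated BCC mice and 0.458 to 1.22 times in healthy mice, as ratios of CPM.

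Of the inflammasome genes, the sensor Nlrp3 varied most between mice of 1 group. It had 14.2, 4.12 and 167 CPM in laser-treated mice 2, 7 and 11. The other groups had 4.34, 2.98, 6.37 and 7.06 CPM after vismodegib, 0.666, 0.941, 1.93 and 0.981 CPM in untreated BCC mice and 0.532, 0.671, 0.552, 1.82 and 1.11 CPM in healthy mice. All mice of both treated groups were above all mice without treatment, and mouse 11 stood far above every other mouse. Its separate libraries had 176 and 163 CPM. The log2 fold change of Nlrp3 after laser was 5.77 (SE 0.95, adjusted p = 0.00104), and 2.97 (SE 0.58, adjusted p = 0.00697) without mouse 11.

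Gsdmd, the gene of gasdermin D, was the most even of the 10 after laser, with 39.4, 40.1 and 39.1 CPM. It had 15.1, 8.67, 17.4 and 20.4 CPM after vismodegib, 10.8, 15.4, 13.4 and 17.1 CPM in untreated BCC mice and 8.90, 11.6, 10.5, 18.9 and 18.8 CPM in healthy mice. The laser-treated mice were above all others, and the remaining groups overlapped. Gsdmd rose by a log2 fold change of 1.48 (SE 0.31, adjusted p = 0.00669), or 2.79-fold, and missed the threshold with days since induction in the fit (1.38, adjusted p = 0.0742).

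Casp1, the caspase that inflammasomes activate, had 68.0, 30.6 and 50.0 CPM after laser, 25.8, 31.3, 139 and 37.3 CPM after vismodegib, 17.2, 57.1, 49.8 and 24.7 CPM in untreated BCC mice and 19.5, 17.1, 24.8, 24.9 and 23.9 CPM in healthy mice. The induced groups overlapped, with a log2 fold change after laser of 0.41 and a 95% interval of -0.69 to 1.52 (adjusted p = 0.726). Casp4, the neighbour of Casp1 on chromosome 9 and the mouse caspase that binds lipopolysaccharide in the cytosol, had 15.5, 12.3 and 22.1 CPM after laser. It had 16.7, 4.08, 72.2 and 17.1 CPM after vismodegib, 2.03, 9.41, 14.3 and 9.16 CPM in untreated BCC mice and 3.64, 2.13, 4.17, 8.31 and 6.53 CPM in healthy mice. Laser-treated and untreated mice overlapped here as well, with a log2 fold change of 0.93 and a 95% interval of -0.61 to 2.47 (adjusted p = 0.521). Vismodegib mouse 9 was the highest of all 16 mice for both caspases. These intervals leave room for changes of more than 2-fold in either gene.

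Per kilobase of exon, with lengths from GENCODE M21, Casp1 was the most abundant of the 10 in every group, at 33.1 ± 12.5 CPM per kilobase after laser (n = 3), 39.0 ± 36.0 after vismodegib (n = 4), 24.8 ± 12.8 in untreated BCC skin (n = 4) and 14.7 ± 2.38 in healthy skin (n = 5). After laser, Tlr13 at 23.3 ± 8.48 and Gsdmd at 22.0 ± 0.287 CPM per kilobase came next, and their ranges overlapped with that of Casp1. Tlr2 at 14.3 ± 7.63 and Tlr8 at 13.9 ± 1.67 CPM per kilobase did not differ beyond their spread, and Tlr9 was last at 3.55 ± 0.938. Tlr13 was the 2nd of the 10 in laser-treated, the 5th in vismodegib-treated, the 7th in untreated BCC and the 9th in healthy skin. Nlrp3 was the 4th after laser, a place that rests on mouse 11, the 9th after vismodegib and the 10th in untreated BCC and in healthy skin.

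The second comparison asks what vismodegib changed in tumour-bearing skin. It shares the untreated BCC mice with the first. After vismodegib, 2 of the 10 genes rose and 0 fell, while 8.03% of all genes rose and 9.00% fell. The genes were Tlr2, with a log2 fold change of 1.12 (SE 0.30, adjusted p = 0.0206), and Tlr13, with 2.40 (SE 0.50, adjusted p = 0.00498). Nlrp3 had a log2 fold change of 2.20 (SE 0.81, adjusted p = 0.0716), with all 4 treated mice above all 4 untreated ones. Tlr2 and Nlrp3 were the 2 of 10 without overlap between the groups, a state reached by 7.63% of all genes for higher values and by 8.74% for lower ones, where 0 of the 10 stood. Tlr7, Tlr8, Tlr9 and Gsdmd, which rose after laser, had log2 fold changes of 0.71 (95% interval -0.48 to 1.89), 1.05 (0.06 to 2.04), 0.72 (-0.23 to 1.67) and 0.12 (-0.50 to 0.73) after vismodegib.

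The call of Tlr2 was lost without untreated mouse 4 (1.08, adjusted p = 0.0533) or 8 (1.06, adjusted p = 0.0648) and in limma's voom fit (1.04, adjusted p = 0.0521). Vismodegib mouse 9 was the highest treated mouse for 7 of the 10 genes. Without it the log2 fold changes of Tlr7, Casp1 and Casp4 were -0.02, -0.21 and 0.56, against 0.71, 0.65 and 1.65 with it, and none of these passed the test either way. Without vismodegib mouse 6, the lowest for 9 of the 10, Tlr8 (1.34, adjusted p = 0.0377) and Casp4 (2.02, adjusted p = 0.0306) passed and the count was 4. Scaling by library size alone moved the median log2 fold change over all genes to -0.30, against 0.05 with TMM. The calls over all genes were then 440 higher and 2164 lower, against 1266 and 1418, and Tlr2 had a log2 fold change of 0.72 (adjusted p = 0.12).

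**Figure D2:**
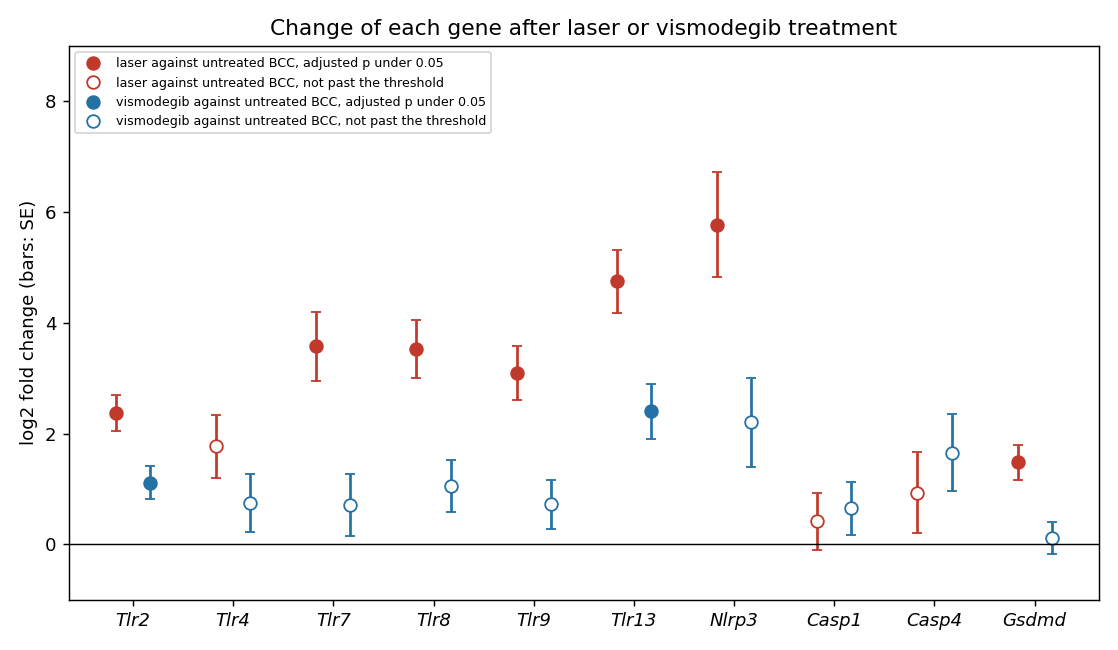
Log2 fold change with its SE for each gene after laser (red, left) and after vismodegib (blue, right), both against the same 4 untreated BCC mice. Filled points have an adjusted p under 0.05, which holds for 7 genes after laser and for Tlr2 and Tlr13 after vismodegib.

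Set directly against vismodegib-treated skin, laser-treated skin had higher levels of 7 of the 10 genes and lower levels of 0, while 6.69% of all genes were higher and 2.46% lower. Scaling by library size alone gave 1366 genes higher and 194 lower, against 1054 and 388 with TMM. Log2 fold changes, laser over vismodegib, were 2.87 for Tlr7 (SE 0.61, adjusted p = 0.00789), 2.47 for Tlr8 (SE 0.50, adjusted p = 0.00625), 2.38 for Tlr9 (SE 0.48, adjusted p = 0.00579) and 2.35 for Tlr13 (SE 0.51, adjusted p = 0.00937). For Gsdmd the value was 1.36 (SE 0.31, adjusted p = 0.0118) and for Tlr2 1.25 (SE 0.32, adjusted p = 0.0224). Nlrp3 differed by 3.57 (SE 0.86, adjusted p = 0.0168), although its ranges overlapped. In 6 of the 10 the laser-treated mice were all higher, against 13.0% of all genes, and in 0 all lower, against 9.24%. Without laser mouse 11, Nlrp3 differed by 0.82 (adjusted p = 0.423) and Tlr2 by 0.75 (adjusted p = 0.155), so that 5 of the 10 were called. The call of Nlrp3 was also lost without vismodegib mouse 1 (3.49, adjusted p = 0.0531). Casp1 (-0.23, 95% interval -1.35 to 0.88) and Casp4 (-0.72, 95% interval -2.29 to 0.85) were not called. Without vismodegib mouse 9 their values were 0.62 and 0.37, and that of Tlr7 was 3.60 (adjusted p = 0.00175). Without laser mouse 7 the value of Casp1 was 0.02.

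Untreated BCC skin was then set against healthy skin. None of the 10 genes rose or fell in edgeR's test, with 0 at an unadjusted p under 0.05 and 0 called in DESeq2 and in limma's voom fit, while 2.66% of all genes rose and 0.159% fell. The ranges overlapped for all 10, while 5.18% of all genes were higher and 1.47% lower without overlap. Log2 fold changes ran from -0.77 for Tlr9 (95% interval -1.68 to 0.14) to 0.81 for Casp4 (95% interval -0.55 to 2.18). Tlr2, Tlr8 and Gsdmd had log2 fold changes of -0.06 (95% interval -0.66 to 0.54), -0.02 (-0.95 to 0.91) and 0.04 (-0.53 to 0.62).

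Against healthy skin, laser-treated skin had 8 of the 10 genes higher and 0 lower, while 7.95% of all genes were higher and 1.29% lower. Tlr4 was added to the 7 with a log2 fold change of 1.97 (SE 0.53, adjusted p = 0.0275). Nlrp3 had 6.03, and 3.23 without laser mouse 11 (adjusted p = 0.00155). The call of Tlr4 was lost without laser mouse 2 or 11 or healthy mouse 10, 13 or 14 (adjusted p = 0.0621 to 0.168). In all 10 the laser-treated mice were above the healthy mice, against 14.7% of all genes, and in 0 below, against 11.0%. With a score of growing hair genes in the fit, 4 of the 10 were called and Tlr4 (0.66), Tlr7 (2.05), Tlr9 (1.63) and Gsdmd (0.75) were not. The score was 0.635 to 3.9 in laser-treated and 5.82 to 9.2 in healthy mice. These ranges do not overlap, so score and group cannot be told apart in this comparison.

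Vismodegib-treated skin had 4 of the 10 higher than healthy skin and 0 lower, against 7.57% and 4.07% of all genes. These were Tlr13 (log2 fold change 2.76, SE 0.47, adjusted p = 0.00151), Tlr2 (1.05, SE 0.28, adjusted p = 0.0257), Casp4 (2.47, SE 0.66, adjusted p = 0.026) and Nlrp3 (2.46, SE 0.75, adjusted p = 0.0453). In 4 of the 10, Tlr2, Tlr13, Nlrp3 and Casp1, the treated mice were all above the healthy ones, against 9.33% of all genes, and in 0 below, against 6.78%. Library size alone gave 590 genes higher and 895 lower over the whole table, against 1193 and 641. Tlr13 was the 1 call left without vismodegib mouse 9, where Casp4 had 1.34 (adjusted p = 0.164), and without healthy mouse 10, 13 or 14. The call of Nlrp3 was lost without any 1 of the 5 healthy mice or without vismodegib mouse 1, 9 or 12 (adjusted p = 0.0532 to 0.114).

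In 3 of the 4 groups, mice with high levels of growing hair genes were low in most members. The score, the mean log2 CPM of 12 genes of growing hair follicles such as Krt25 and Krt71, was 8.57 in vismodegib mouse 6, against 2.10 to 3.04 in the other mice of its group, and this mouse was the lowest of them for 9 of the 10 genes. It was 8.46 in untreated BCC mouse 3, against 2.92 to 3.84, and this mouse too was the lowest of its group for 9 of the 10. In healthy skin, mouse 15 was the highest for 10 of the 10 and mouse 16 had the next highest value for several, and their scores of 6.72 and 5.82 were below the 8.45 to 9.20 of the others. The laser-treated mice ran the other way, since mouse 7, with the lowest score (0.635), was the lowest for 8 of the 10 and mouse 11, with the highest score (3.90), was the highest for 5. With the score in the fit, 7 of the 10 were called in laser against untreated BCC skin, as without it.

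The summed CPM of 12 monocyte and macrophage markers was 3440 to 4270 after laser, 658 to 2550 after vismodegib, 341 to 683 in untreated BCC skin and 415 to 1190 in healthy skin. All 12 rose after laser (median log2 fold change 2.90) and 7 of 12 rose after vismodegib (median 1.47), against untreated BCC skin. The markers Fcgr1 and Ly6c2 had log2 fold changes of 5.50 (SE 0.45) and 5.18 (SE 0.67) after laser. Vismodegib mouse 9, high in Tlr4, Tlr7, Tlr8 and Tlr13 but not in Tlr9 (1.86 CPM), also had the highest macrophage sum of its group. Of that sum of 2550 CPM, the single marker Lyz2 gave 1310 CPM. The part of macrophage number in the members' changes was not tested.

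Neutrophil markers, a list of 9 genes, had their highest sums after vismodegib. They summed to 208, 96.4 and 2390 CPM in laser-treated mice 2, 7 and 11, to 2420 to 49400 CPM after vismodegib, 25.4 to 136 CPM in untreated BCC mice and 7.72 to 22.2 CPM in healthy mice. Of the 8 tested, 4 rose after laser and 8 after vismodegib against untreated BCC skin, and 49400 CPM was the value of mouse 9. Most of the sum after vismodegib was S100a8 (1080 to 23300 CPM) and S100a9 (1280 to 25900 CPM), which keratinocytes also use. Between the treatments, the means of the other markers did not all differ in the same direction. In laser against vismodegib, 0 of the 8 tested genes of the list were called. Cxcr2 had a lower mean after laser (41.3 ± 56.9 CPM) than after vismodegib (57.1 ± 25.6 CPM), as did Camp (0.369 ± 0.368 and 1.68 ± 1.57 CPM). Means of Mmp8, Ngp, Ly6g, Csf3r and Retnlg were similar or higher after laser. Laser-treated mice spread widely in them, from 30.2 to 187 CPM for Csf3r and from 1.59 to 117 CPM for Retnlg. Csf3r averaged 86.6 ± 86.8 CPM after laser (n = 3) and 71.9 ± 45.7 CPM after vismodegib (n = 4). In untreated BCC skin it averaged 3.12 ± 0.480 CPM (n = 4). Retnlg averaged 41.6 ± 64.9 CPM after laser, 10.2 ± 14.2 CPM after vismodegib and 0.233 ± 0.0862 CPM in untreated BCC skin. Ngp and Ly6g were at 0 CPM in untreated BCC mice. Within the laser-treated mice, Nlrp3 (14.2, 4.12 and 167 CPM in mice 2, 7 and 11) had the same order as the neutrophil sum. Vismodegib mouse 9 had 6.37 CPM of Nlrp3 at a sum of 49400 CPM, most of it S100a8 and S100a9. Cxcr2 and Csf3r reached at most 78.2 and 137 CPM after vismodegib, against 107 and 187 CPM after laser. Plasmacytoid dendritic cell markers, a cell type rich in Tlr7 and Tlr9, summed to 1000 to 1190 CPM after laser, 911 to 3630 after vismodegib, 716 to 1050 in untreated BCC skin and 350 to 582 in healthy skin, most of it Ly6d, which keratinocytes also use. Of the 7 markers 3 rose after laser and 2 after vismodegib. Siglech, a defining gene of these cells, rose after laser with a log2 fold change of 3.45 (SE 0.63, adjusted p = 0.00237). Of 6 B cell markers 2 passed the filter on low counts, and both rose after laser. Cd22 averaged 12.9 ± 4.15 CPM after laser (n = 3) and 0.484 ± 0.152 CPM in untreated BCC skin (n = 4), and Cd79b 2.43 ± 0.648 CPM after laser and 0.349 ± 0.202 CPM in untreated BCC skin. Ms4a1 and Cd79a, defining genes of B cells, reached at most 0.0951 and 0.372 CPM in any mouse. Endothelial markers summed to 203 to 425 CPM after laser against 78.3 to 140 CPM in untreated BCC skin (3 of 5 rose), and mast cell markers to 350 to 672 against 198 to 305 CPM (3 of 6 rose). Keratinocyte markers summed to 27000 to 52200 CPM after vismodegib against 10500 to 19900 CPM in untreated BCC skin (2 of 5 rose). After laser, 0 of 5 T cell markers tested and 0 of 5 fibroblast markers rose. Of 9 markers of conventional dendritic and Langerhans cells, 2 rose and 1 fell after laser. The part of these cells in the members' changes was not tested.

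**Figure D3:**
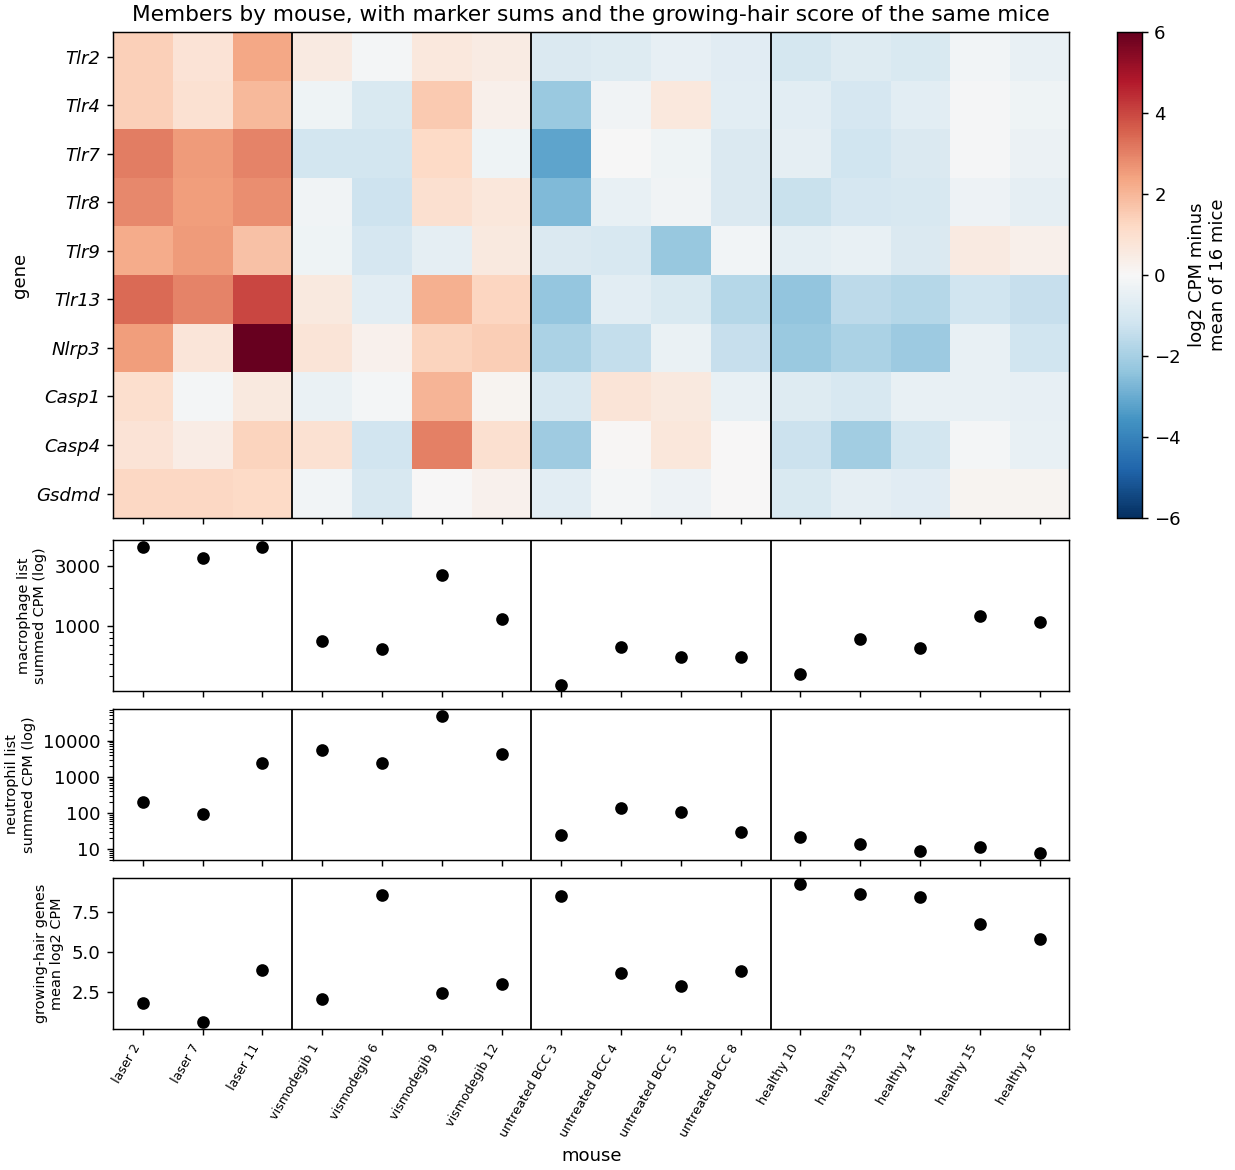
Upper panel, log2 CPM of each gene minus its mean over the 16 mice, by mouse. Lower panels, the summed CPM of macrophage and of neutrophil markers on log axes and the mean log2 CPM of growing hair genes. Vismodegib mouse 6 and untreated BCC mouse 3, with scores of 8.57 and 8.46, are low across most members, and laser mouse 11 is the highest for Nlrp3.

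For each member, the 3 genes closest to it over the 16 mice were sought by the mean absolute difference of centred log2 CPM. The closest were Tnfrsf23 for Tlr2 (0.17), Ptprc for Tlr4 (0.23), Cybb for Tlr7 (0.29), Trim30a for Tlr8 (0.23) and Myo1f for Tlr9 (0.25). Cd300lf was closest to Tlr13 (0.39), Cyp4f18 to Nlrp3 (0.44), Lamp2 to Casp1 (0.17), Galnt7 to Casp4 (0.28) and P2rx4 to Gsdmd (0.15). Tlr6, the partner of Tlr2, was the 3rd closest gene to it (0.23), and the macrophage marker Ms4a7 was the 2nd closest to Tlr13 (0.40). Osm, a cytokine gene, was the 2nd closest to Nlrp3 (0.45). These distances share the same libraries and are given as a description.

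The other genes of these pathways show which steps rose with the members after laser. For every list below, the share over all genes tested was 6.10% higher and 1.65% lower. The lists too were chosen with earlier results of these data known, so these shares are given as a description. Of 6 other Toll-like receptors, 2 rose against untreated BCC skin and 0 fell. Tlr1 had 34.1, 19.8 and 34.3 CPM after laser, against 1.04, 2.94, 2.67 and 1.88 CPM in untreated mice, with a log2 fold change of 3.78 (SE 0.46, adjusted p = 9.86e-05). Tlr6 had 2.39 (SE 0.44, adjusted p = 0.00248). Both partners of Tlr2 thus rose together with it, while Tlr3, Tlr5, Tlr11 and Tlr12 had values of -0.60 to 0.91 and were not called, and are given here to complete the family.

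Of 11 co-receptors and chaperones, 4 rose and 0 fell. Unc93b1, which carries the endosomal receptors out of the endoplasmic reticulum, had 179, 226 and 176 CPM after laser, against 26.6, 28.0, 24.3 and 33.0 CPM in untreated mice (log2 fold change 2.79, SE 0.33, adjusted p = 7.9e-05). Cd180, a receptor related to Tlr4, rose by 3.37 (SE 0.49, adjusted p = 0.000426). Ly86, the partner of Cd180, had 3.03 (SE 0.73, adjusted p = 0.0158), and the lipopolysaccharide co-receptor Cd14 had 5.17 (SE 0.82, adjusted p = 0.000808). Both were named after their values were seen. Cd14 had 79.0, 73.8 and 685 CPM in laser-treated mice 2, 7 and 11, and its value was 3.26 without mouse 11. The call of Ly86 was lost without untreated mouse 8 (2.84, adjusted p = 0.056).

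Of 23 adaptors, kinases and transcription factors, 4 rose and 0 fell. Pik3ap1, an adaptor that links the receptors to phosphoinositide 3-kinase, changed most, with 72.0, 60.6 and 94.4 CPM after laser against 3.65, 4.85, 5.47 and 6.62 CPM in untreated mice (log2 fold change 3.88, SE 0.36, adjusted p = 1.97e-05). Irf5, a transcription factor downstream of MyD88, rose by 1.30 (SE 0.24, adjusted p = 0.00272), a call lost with days since induction in the fit (0.66, adjusted p = 0.233). The adaptors Ticam2 (1.91, adjusted p = 0.00662) and Myd88 (0.81, adjusted p = 0.0452), named after their values were seen, were the other 2. The call of Myd88 was lost without any one of the 3 laser-treated mice or without untreated mouse 4, 5 or 8 (log2 fold change 0.62 to 0.90). The median over the list was 0.20, and -0.04 over all genes. None of 10 inhibitors of the pathway passed in edgeR's test, with Nfkbia, the inhibitor of NF-kB, at 0.83 (SE 0.34, adjusted p = 0.171) and Tnfaip3 at 0.62 (SE 0.29, adjusted p = 0.236).

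Of 10 other inflammasome sensors tested, 7 rose and 0 fell. Naip2 and Nlrc4, which together sense bacterial secretion proteins, had the smallest p, with log2 fold changes of 2.64 (SE 0.40, adjusted p = 0.000575) and 2.47 (SE 0.43, adjusted p = 0.00164). With days since induction in the fit Nlrc4 had 2.38 and missed the threshold (adjusted p = 0.0703). In that fit Nlrp1b (1.92, adjusted p = 0.0905), Naip5 (2.19, adjusted p = 0.0757) and Naip6 (2.30, adjusted p = 0.056) missed it as well. Without laser mouse 11 the count was 3 of the list, since Nlrp12, Mefv, Nlrp1b and Naip6, singled out for this after their values were seen, were not called. The calls of Nlrp12 and Mefv were also lost without untreated mouse 3 or 4. That of Nlrp1b was lost without laser mouse 2 or untreated mouse 4 or 8. That of Naip6 was lost without laser mouse 2 or untreated mouse 4. The Naip genes are close copies of each other, so reads could be split between them and their separate values are uncertain. Of 9 adaptors, regulators and substrates, 3 rose and 0 fell. Il18bp, which blocks interleukin 18, had 30.8, 21.9 and 20.1 CPM after laser against 3.79, 3.56, 3.51 and 3.00 CPM in untreated mice (log2 fold change 2.81, SE 0.28, adjusted p = 2.32e-05). Il1b, a substrate of caspase 1, had 125, 19.6 and 765 CPM against 3.36, 9.85, 14.2 and 5.39 CPM (5.21, SE 1.02, adjusted p = 0.00461), and 3.09 without mouse 11 (adjusted p = 0.0402). Of 12 other gasdermins, caspases and rupture genes tested, 3 rose and 0 fell. Ninj1, which ruptures the membrane of dying cells, rose by 2.08 (SE 0.30, adjusted p = 0.000388) and Casp8, an initiator caspase, by 1.21 (SE 0.20, adjusted p = 0.00114).

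**Figure D4:**
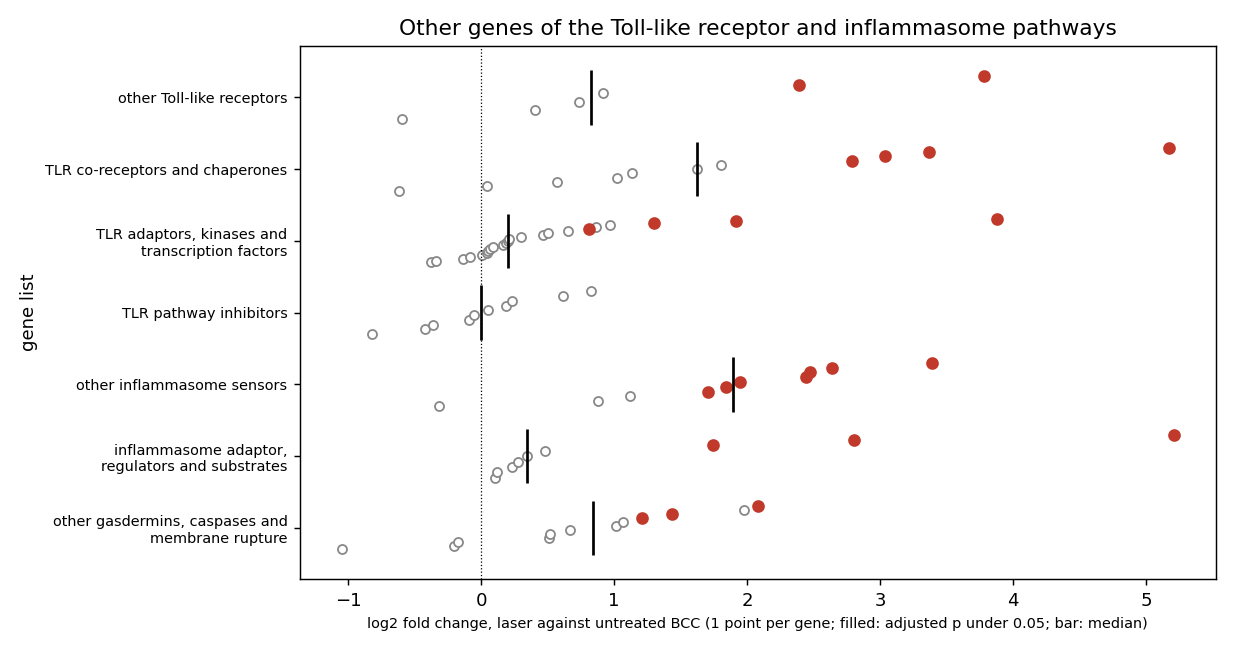
Log2 fold change after laser against untreated BCC skin for the other genes of the pathways, with 1 point per gene and 1 row per list. Filled points have an adjusted p under 0.05 and bars are medians. Other inflammasome sensors have a median of 1.89, and the inhibitors lie around 0.

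The 7 lists name 84 genes besides the members, and those that passed the filter were tested. After laser, 23 of them rose and 0 fell against untreated BCC skin, while 6.10% of all genes rose and 1.65% fell. After vismodegib, 12 rose and 2 fell against the same mice, while 8.03% of all genes rose and 9.00% fell. Of the list genes, 7 rose after both treatments. Tlr1 was the 1 other receptor that rose after vismodegib (log2 fold change 1.90, SE 0.42, adjusted p = 0.00716). Myd88, the shared adaptor, had 108, 58.3, 65.5 and 84.4 CPM after vismodegib against 42.6, 25.9, 26.7 and 37.6 CPM in untreated mice, and was the 1 of 23 in its list that rose (1.25, SE 0.22, adjusted p = 0.00207). Lbp, which hands lipopolysaccharide to Cd14, rose by 1.49 (SE 0.42, adjusted p = 0.0242), and Tril, an accessory protein of Tlr4, fell by 1.32 on the log2 scale (SE 0.37, adjusted p = 0.0263). The call of Lbp was lost without untreated mouse 3 or 4, and that of Tril without vismodegib mouse 1, 9 or 12 or untreated mouse 4 or 8. Among the inhibitors Nfkbia rose (1.11, SE 0.32, adjusted p = 0.0278) and Sarm1 fell (-1.33, SE 0.44, adjusted p = 0.047), and both calls were lost without mouse 9 and without several single mice besides. Of the sensors Nlrp12 rose (3.72, SE 0.81, adjusted p = 0.00677).

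Of the 9 adaptors, regulators and substrates, 5 rose after vismodegib, and 1 without mouse 9. Il1rn, the receptor antagonist of interleukin 1, rose by 1.64 (SE 0.36, adjusted p = 0.00653). It rose after laser as well, by 1.74, a call lost without laser mouse 11 (1.07, adjusted p = 0.107). The channel gene Panx1 rose by 0.70 after vismodegib (SE 0.19, adjusted p = 0.0214), a call lost without vismodegib mouse 9 or untreated mouse 4, 5 or 8. Pycard, the adaptor that joins Nlrp3 to caspase 1 and a gene named after its values were seen, had 99.0, 109, 464 and 104 CPM after vismodegib against 79.6, 95.3, 82.5 and 67.5 CPM in untreated mice. Its log2 fold change was 1.26 (SE 0.41, adjusted p = 0.0444), and 0.38 without mouse 9 (adjusted p = 0.183), and the call was lost without any 1 of the untreated mice as well. Casp14, a caspase of the cornified layer of the epidermis, rose by 1.88 (SE 0.34, adjusted p = 0.00226), and Gsdmc, a gasdermin of epithelia, by 2.45 (SE 0.67, adjusted p = 0.0213). Casp14 rose after laser as well, by 1.43, a call lost without laser mouse 7 or 11 or untreated mouse 4 or 8. Gsdmc was also the 1 gene of all 7 lists that rose in untreated BCC skin against healthy skin, with 25.5, 33.2, 37.3 and 3.43 CPM against 0.532, 0.846, 0.966, 1.53 and 5.16 CPM (3.75, SE 0.65, adjusted p = 0.00327). In that comparison 2.66% of all genes rose.

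Directly between the treatments, Pik3ap1 (log2 fold change, laser over vismodegib, 2.96, SE 0.35, adjusted p = 0.000173), Unc93b1 (2.15, SE 0.32, adjusted p = 0.00069), Cd180 (3.02, SE 0.49, adjusted p = 0.00129) and Il18bp (1.99, SE 0.27, adjusted p = 0.000371) were higher after laser. Nlrc4 (2.17, SE 0.42, adjusted p = 0.00483), Naip2 (1.90, SE 0.39, adjusted p = 0.00682), Tlr1 (1.88, SE 0.43, adjusted p = 0.013) and Ninj1 (1.37, SE 0.30, adjusted p = 0.00893) were also higher. Across all 7 lists, which name 84 genes, 15 were higher after laser and 0 after vismodegib. Among them, the calls of Tlr6, Tlr12, Cd14, Irf5 and Casp8 were each lost when certain single mice were left out. Cd14 had 1.37 without laser mouse 11 (adjusted p = 0.188). Over all genes tested, 6.69% were higher after laser and 2.46% lower.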

How the data were processed

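RNA of whole mouse skin was sequenced from poly-A libraries made with a directional kit, per the labels' protocols. The authors deposited RSEM expected counts per gene, not normalised, made with Bowtie2 and RSEM on GRCm39 per the submitters' processing notes. Versions, annotation, strand setting and filters are not given in the sources, so reads of antisense partners cannot be told apart with certainty. Of the values, 3.42% were not whole, but those of the 10 members were whole in all 19 libraries.

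Expected counts were rounded and summed per mouse (16 mice; mice 11, 12 and 16 had a pair of libraries, which were not copies). Mouse 16 carries ages of 128 and 135 days in the labels. filterByExpr in edgeR 4.0.16 (R 4.3.3) kept 15760 genes and removed 2761. One quasi-likelihood fit over all 4 groups with TMM scaling gave log2 fold changes with SE, with Benjamini-Hochberg adjustment of p-values over all genes. The test was checked on simulated data for laser against untreated BCC. Among 15645 genes, 99 were changed by a log2 of size 1 and 100 by a log2 of size 2. The test recovered 6.06% of the former and 64% of the latter, so that changes of size 1 were mostly missed. In the data, 961 genes were called higher and 260 lower, more than were changed in the simulation, so the rates there may differ. Alternatives used DESeq2 1.42.0, limma 3.58.1 with voom, other scalings, filters, covariates and each mouse left out.

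Counts of the lists without mouse 11 or mouse 9 were added after seeing the data. The members and all lists were chosen with earlier results of these data known. The rule for named genes takes the members, per pathway list the 2 genes with the smallest p (after laser against untreated BCC; in other comparisons those called) and per member the 3 closest genes. Not every gene it takes is printed. Promoters are from RefSeq on GRCm38.p6, another build than that of the counts, and exon lengths from GENCODE M21.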

Additional observations from a re-analysis of the deposited data

Results flagged for a closer look

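Casp1 in vismodegib mouse 9, at 139 CPM, lay far from the other mice of its group, which had 25.8 to 37.3 CPM. Its gap to the nearest of them was 0.899 of the group's whole range, above Dixon's limit for 4 samples. It was the 1 such value among 30 groups of values tested. Chance alone gives about 1 in 20, so 1 flag among 30 is no more than chance gives. The same mouse had 72.2 CPM of Casp4, against 4.08 to 17.1 CPM in the other mice of its group. It had 464 CPM of Pycard, against 99.0 to 109 CPM in those mice. Its neutrophil marker sum was 49400 CPM, most of it S100a8 and S100a9, and its TMM factor was 0.591.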

How the results depend on the processing

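Over all alternatives, 1097 of 1170 values of single members kept their side of the threshold, 53 lost the call and 20 gained it. The sign differed in 54 values, of which 0 were called with or without the alternative. The count in laser against untreated BCC skin was 5 to 8, and 7 to 8 with each mouse left out. For vismodegib against untreated BCC skin it was 1 with library size alone and 1 in limma's voom fit, against 2. It was 3 in DESeq2, with all 19 libraries, with those 2 groups alone, with the hair score and with days since induction, and 1 to 4 with each mouse left out. For laser against healthy skin it was 4 with the growing hair score, whose ranges do not overlap between these groups, and 10 with those 2 groups alone, against 8. For vismodegib against healthy skin it was 2 with library size alone, 1 in limma's voom fit, 1 with the hair score and 5 in both DESeq2 and the fit of all 19 libraries, against 4, and 1 to 6 with each mouse left out. For laser against vismodegib it was 4 with those 2 groups alone, against 7. The causes of these differences were not tested.

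Replicate numbers are shared between groups, but correlations of same-numbered mice ran from -0.385 to 0.616, so they share only a number. With a replicate block the counts were 8, 2, 0, 8 and 7 in laser against untreated BCC, vismodegib against untreated BCC, untreated BCC against healthy, laser against healthy and laser against vismodegib, and 2, against 4, in vismodegib against healthy skin. At most 1 mouse of a group correlated best with its own number. With 3 to 5 mice a group, members not called may have changed.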

Other observations

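The libraries of healthy mouse 16 differed in the members although they carry the same mouse number. The library labelled 135 days was above the one labelled 128 days for all 10 genes, by 1.18 (Casp1) to 2.18 (Tlr13) times, with 4.51 against 2.07 CPM for Tlr13. Its growing hair score was 1.63 against 6.66 and its macrophage marker sum 1370 against 808 CPM. The libraries of laser mouse 11 differed by 1.03 to 2.27 times over the members, the most for Tlr9, with 12.8 and 5.62 CPM, and those of vismodegib mouse 12 by 1.01 to 1.28 times.

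The ratio of Nlrp3 to Casp1, in CPM, was 3.33 in laser mouse 11 and 0.0165 to 0.208 in the other 15 mice. In that mouse Cd14 and Il1b, at 685 and 765 CPM, were also the highest of all 16 mice. Casp1, Casp4 and Pycard in the same mouse had 50.0, 22.1 and 93.4 CPM and stayed below vismodegib mouse 9.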
